A study of Mus musculus with 53 samples.

Results

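The arrays described here compare embryonic mesenchymal cells (eMCs) that expressed the synovial sarcoma fusion gene SS18-SSX1 with eMCs that received the empty retrovirus. They are 8 of the 53 arrays of the series, chosen by their sample labels, with 4 arrays labelled eMC SS18-SSX1 and 4 arrays labelled eMC empty. Per the study's methods, the cells were dissociated from the soft parts of the limbs of late-gestation BALB/c mouse embryos and are primary cells, not a line. A human SS18-SSX1 carrying a FLAG tag was delivered by a pMYs retroviral vector that also encodes GFP, and the control cells received the vector without the fusion. RNA was taken 48 h after the gene was introduced, so the arrays show an early state of a mixed primary culture and not a tumor. No sorting of transduced cells is given in the sources used here, so the share of cells that expressed the fusion is not known. The remaining arrays hold tumors, tumor cell lines and a normal tissue mix, and they are used only for a few levels near the end.

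SS18 is a subunit of the BAF (SWI/SNF) complex, which moves nucleosomes and opens enhancers. In synovial sarcoma its end is replaced by part of an SSX protein, which binds repressed chromatin, and the fusion protein enters the complex in the place of normal SS18. Mesenchymal cells of the embryonic limb make the matrix of connective tissue and can give rise to cartilage, bone, tendon and fat. Cartilage, smooth muscle and interferon genes are set aside here, and what follows is about amino acid, lipid, matrix, lineage and signalling genes.

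The array medians lay between 23.9 and 24.1 intensity units in eMC SS18-SSX1 arrays and between 24.3 and 24.5 in eMC empty arrays. Correlations of log2 values were 0.9979 to 0.9985 among eMC SS18-SSX1 arrays, 0.9966 to 0.9974 among eMC empty arrays and 0.9858 to 0.9867 between the groups. Replicate 4 of eMC empty stood apart on the component that held 5.96% of the variance, at -23.71 against 4.56 to 9.65 for the other eMC empty arrays. No named probe set measured Ss18, and the human fusion has no probe set of its own, so the arrays do not check the labels. The largest difference between the groups, at 1 probe set of Mycn that its other probe sets do not follow, placed the eMC empty arrays within the range of the SS18-SSX1 tumors and the eMC SS18-SSX1 arrays near the tissue mix, and its values are given at the end. What that probe set measured was not tested, and this doubt about what the cultures received touches every comparison below. By RT-qPCR, the study reported Sox2, Apod and Igf1 as raised in eMCs expressing SS18-SSX1. On these arrays Sox2 (log2 change 3.84), Apod (2.98) and Igf1 (1.26) were higher in the arrays labelled eMC SS18-SSX1. Whether both used the same RNA is not stated. Ss18l1, a relative of Ss18, had a log2 change of 0.33 ± 0.099 (SE, adjusted p = 0.0158), which did not pass in a limma fit of all 53 arrays (adjusted p = 0.239), without replicate 4 of eMC SS18-SSX1 (0.0659) or without replicate 3 of eMC empty (0.0577). Markers of mesenchyme were strong in both groups, with log2 levels of 12.77 and 12.81 for the filament protein Vim and 10.76 and 10.72 for the limb factor Prrx1 in eMC SS18-SSX1 and eMC empty. Of 14 mesenchymal markers measured, 5 were higher and 5 lower in eMC SS18-SSX1, with a median log2 change of -0.02, and the probe set of Col1a2 lay near background in both groups.

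Markers of other cells were not absent, and several lists were higher in eMC SS18-SSX1. Their summed intensity per array was 2259 to 2342 in eMC SS18-SSX1 against 418 to 480.3 in eMC empty for mast cells (10 of 12 genes higher), and 3373 to 4878 against 1781 to 2012 for endothelium (19 of 20 higher). The largest single part of the endothelial sum was Ramp2, with 2360, 1564, 1325 and 2850 against 1184, 1285, 1456 and 1368. Its groups overlapped, so the sum reflects its scatter as well as the other markers. Granulocyte genes summed to 6304 to 6404 against 1210 to 1251 (11 of 13 higher), osteoclast genes to 3348 to 3445 against 1184 to 1236 (6 of 9 higher) and macrophage genes to 6149 to 6418 against 4180 to 4335 (14 of 21 higher, 1 lower). Lymphocyte genes lay near background, at 229 to 242 against 233 to 249 summed over 10 genes, with 1 lower. Red cell and platelet genes summed to 998.9 to 1052 against 588 to 636 (2 of 11 higher, 2 lower). Of these the globin Hba-a1 had 444, 459, 462 and 444 in eMC SS18-SSX1 against 64.1, 68.4, 84.8 and 75.5 in eMC empty, while the red cell regulators Gata1 (-0.01) and Klf1 (-0.19) did not pass and the platelet chemokine Ppbp was lower (-0.90). Epithelial genes summed to 951 to 975 against 1257 to 1335 (4 of 20 higher and 4 lower). The lower sum lay mainly in Krt18 (mean 203 against 396) and Epcam (138 against 314), and another probe set of Epcam was higher (0.53). In such bulk RNA, a change in the number of cells of a type and a change in the RNA per cell cannot be told apart.

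At 48 h, 420 genes (2.46% of 17097) were higher and 151 (0.883%) lower in eMC SS18-SSX1, each with a fold change over 2 and an adjusted p below 0.05. By the adjusted p alone, 4467 genes (26.1%) were higher and 3131 (18.3%) lower, and these shares are the background for each list of genes described here. The median log2 change over all genes was -0.01, and the groups did not overlap at 7356 genes (43%). The median SD of a probe set on the log2 scale was 0.072 among eMC SS18-SSX1 arrays and 0.0955 among eMC empty arrays. Whether the arrays of a group came from separate cultures is not stated. In the fit of all 53 arrays, which takes its spread from all groups together, 339 genes were higher and 141 lower by over 2-fold.

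The largest rise was that of Thrsp, a regulator of fatty acid synthesis in fat and liver. Its intensity was 950.4, 990.5, 926 and 927 in eMC SS18-SSX1 arrays, against 20.2, 23.6, 21.5 and 17.2 in eMC empty arrays. The groups were far apart, and the log2 change was 5.53 ± 0.077 (SE, adjusted p = 4.31e-18), with 3.77 at its other probe set. The apelin receptor gene Aplnr had 357, 366, 381 and 356 against 16.2, 17.6, 17.4 and 16.2, a log2 change of 4.44 that its second probe set gave as 0.84. The potassium channel subunit Kcne3 was below the background level of 11.7 on each eMC empty array, at 7.54, 7.53, 8.15 and 7.81, and reached 133, 148, 140.3 and 126 in eMC SS18-SSX1. Other rises among the first 20 were those of the protease inhibitors Ctla2a (4.68), Stfa2l1 (4.30) and Stfa3 (3.36), of Asgr1 (3.44), a receptor subunit known from liver, of Olfm4 (3.42) and of the galactosyltransferase of myelin lipids, Ugt8a (3.34, with 0.14 at its other probe set). This ranking leaves out the lists set aside and the markers of other cells. Some of those markers rose as far, such as Tpsab1 (5.15), Cpa3 (4.89) and Cma1 (4.68) of mast cells and S100a9 (3.95) and S100a8 (3.70) of granulocytes. Stfa2l1, Stfa3 and Olfm4 are also known from granulocytes and Aplnr from endothelium, whose marker sums are given above. The part of these cells in the rises was not tested.

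Falls were smaller. Apart from Mycn, whose probe sets disagree and which is described last, the largest was that of the kallikrein Klk10, with 26.5, 23.8, 21.99 and 18.6 in eMC SS18-SSX1 against 126, 136, 106 and 95.1 in eMC empty (log2 change -2.34 ± 0.12, adjusted p = 3.95e-11). Prkg2, a cGMP-dependent kinase active in growth plate cartilage, had 249, 231, 242 and 230.1 against 958, 968, 974 and 917, and each of its probe sets gave a fall of this size or more (a 4.01-fold difference). The melanotransferrin gene Meltf (-2.05), the kallikrein Klk8 (-2.02), the serine protease Prss22 (-2.09), the glycosyltransferase Galnt3 (-2.25) and the muscle protein Nebl (-2.12) fell by about as much, although other probe sets of Galnt3 and Nebl gave changes as small as -0.14 and -0.17. Pou2af1, a coactivator known from B cells, had 25.7, 25.9, 30.7 and 25.9 against 125, 119.5, 139 and 144, and its fall did not pass in the fit of all arrays (adjusted p = 0.112). The cell cycle inhibitor gene Cdkn2a fell to 18.4, 18.5, 19.5 and 18.2 in eMC SS18-SSX1, against 67.2, 65.6, 76.7 and 69.4 in eMC empty, and its neighbour Cdkn2b had a log2 change of -1.55.

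**Figure D1:**
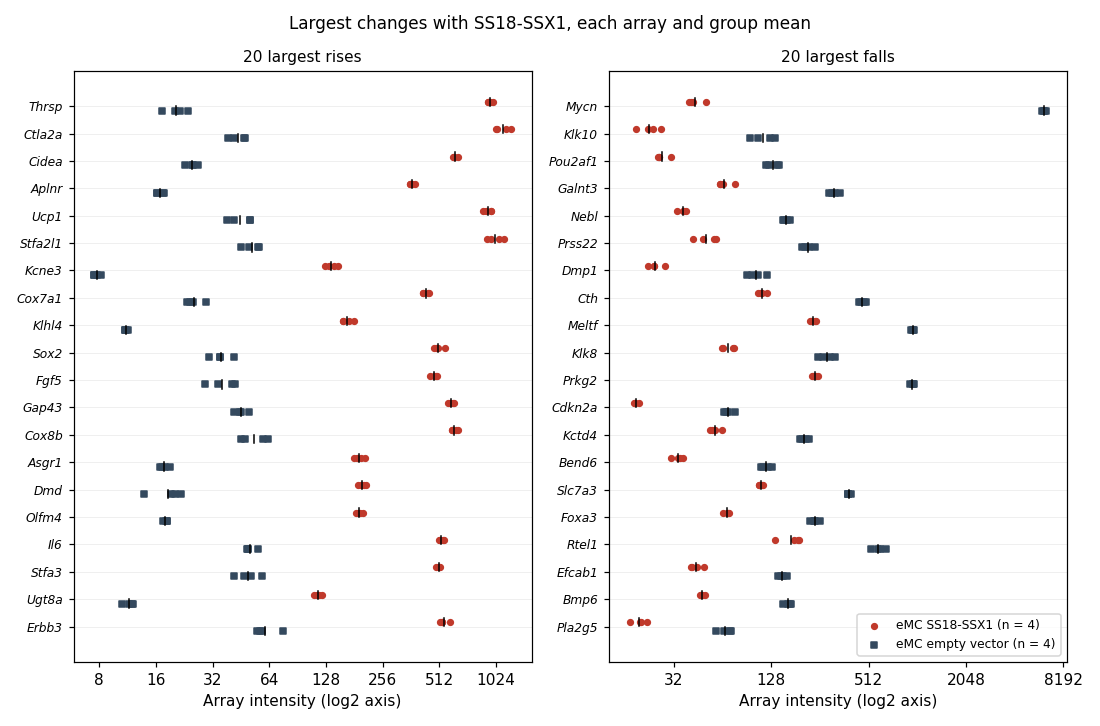
Intensity on each array (points, log2 axis) of the first 20 rises and first 20 falls by size among genes whose groups did not overlap, with eMC SS18-SSX1 in red above eMC empty in dark squares and a bar at each group mean. The lists set aside, the markers of other cells and genes whose higher group mean was not above 23.4 are left out. Thrsp heads the rises at a log2 change of 5.53, and apart from Mycn the falls reach -2.34 for Klk10.

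Genes for making amino acids were lower in eMC SS18-SSX1. ATF4 is the transcription factor through which cells answer amino acid shortage, and it turns on synthesis enzymes, transporters and the enzymes that load tRNAs. Of 27 genes of amino acid synthesis and the ATF4 response that were measured, 2 were higher and 23 lower by the adjusted p, 8 of them by over 2-fold, against 26.1% higher and 18.3% lower of all genes. The list's median log2 change was -0.64, and in the fit of all arrays 1 was higher and 14 lower. Cth, which makes cysteine from cystathionine, fell to 107, 109.7, 120.1 and 112 in eMC SS18-SSX1, against 492, 476, 457 and 447 in eMC empty (log2 change -2.06 ± 0.050, adjusted p = 3.58e-15). Aldh1l2, a mitochondrial folate enzyme, had 267, 256, 257 and 276 against 800.0, 821, 809 and 767 (log2 change -1.60 ± 0.037, adjusted p = 2.42e-15). No eMC SS18-SSX1 array of either gene reached the lowest eMC empty array.

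Enzymes of several branches moved together. Asparagine synthetase, Asns, had 1117, 1105, 1099 and 1097 in eMC SS18-SSX1 against 2351, 2314, 2327 and 2324 in eMC empty (log2 change -1.08 ± 0.020, adjusted p = 1.42e-16). The branched-chain aminotransferase Bcat1 had 314, 309, 329 and 326 against 786, 801, 808 and 798, a log2 change of -1.32 at its brightest probe set and -0.40 at the one that moved least. The alanine aminotransferase Gpt2 fell by 1.21 and the proline enzyme Aldh18a1 by 1.05 on the log2 scale. The serine pathway fell as a whole but by less, with -0.56 for Phgdh, -0.55 for Psat1, -0.82 for Psph and -0.75 for Shmt2, which passes serine carbon to folate. The 3 enzymes of serine synthesis each fell by less than 2-fold, whereas Cth, downstream of serine, fell about 4-fold. In the fit of all arrays Phgdh and Psat1 did not pass.

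Among regulators, Chac1, which degrades glutathione and is a target of ATF4, had 457, 467, 456 and 458 in eMC SS18-SSX1 against 1033, 1047, 1079 and 1119 in eMC empty (log2 change -1.22 ± 0.032, adjusted p = 8.33e-15). Trib3, a pseudokinase that restrains ATF4, varied more between arrays, with 176, 136, 185 and 155 against 352, 293, 327 and 338, and still did not overlap between the groups. Atf4 itself had 1581, 1558, 1533 and 1665 against 1893, 1932, 1912 and 1852, a log2 change of -0.26 that its other probe set gave as -0.04 and that did not pass in the fit of all arrays (adjusted p = 0.0861). Atf3 went the other way, at 607, 586, 614 and 689.8 in eMC SS18-SSX1 against 184, 181, 188 and 175 in eMC empty (log2 change 1.78 ± 0.049, adjusted p = 2.01e-14), and Cebpb was the only other member higher (0.32, with -0.18 at a dimmer probe set), though not in the fit of all arrays. ATF3 is induced by many kinds of stress. ATF4 is regulated mostly by translation, which these arrays do not measure.

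Carriers and tRNA enzymes were lower as well. Of 18 amino acid transporters, 3 were higher and 10 lower, with a median log2 change of -0.24, and in the fit of all arrays 2 were higher and 5 lower. The cationic amino acid carrier Slc7a3 had 112, 108, 113 and 108 in eMC SS18-SSX1 against 383, 381, 383 and 396 in eMC empty (log2 change -1.81 ± 0.044, adjusted p = 3.81e-15), and its relative Slc7a1 fell by 0.94 on the log2 scale. The leucine carrier Slc7a5 had 408, 371, 407 and 382 against 773, 766, 696 and 741, and the glutamate carrier Slc1a1 fell by 1.38 on the log2 scale. The lysosomal carrier Slc36a1 (0.65) and the cystine carrier Slc7a11 (0.54) were higher. Probe sets that moved least gave -0.29 for Slc7a1, -0.25 for the exporter Xpot and 0.11 for Slc7a11. Of 18 genes on the list of tRNA synthetases, which also holds the tRNA exporter Xpot, 1 was higher and 13 lower, none by over 2-fold, with a median of -0.44. Iars, for isoleucine, had 1027, 1002, 998 and 996 against 1717, 1692, 1745 and 1746, Xpot fell by 0.70 on the log2 scale, and the arginine enzyme Rars (0.24) was the 1 higher. With all arrays in 1 fit, none was higher and 10 lower, with Rars and Eprs (adjusted p = 0.238) among those that did not pass.

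**Figure D2:**
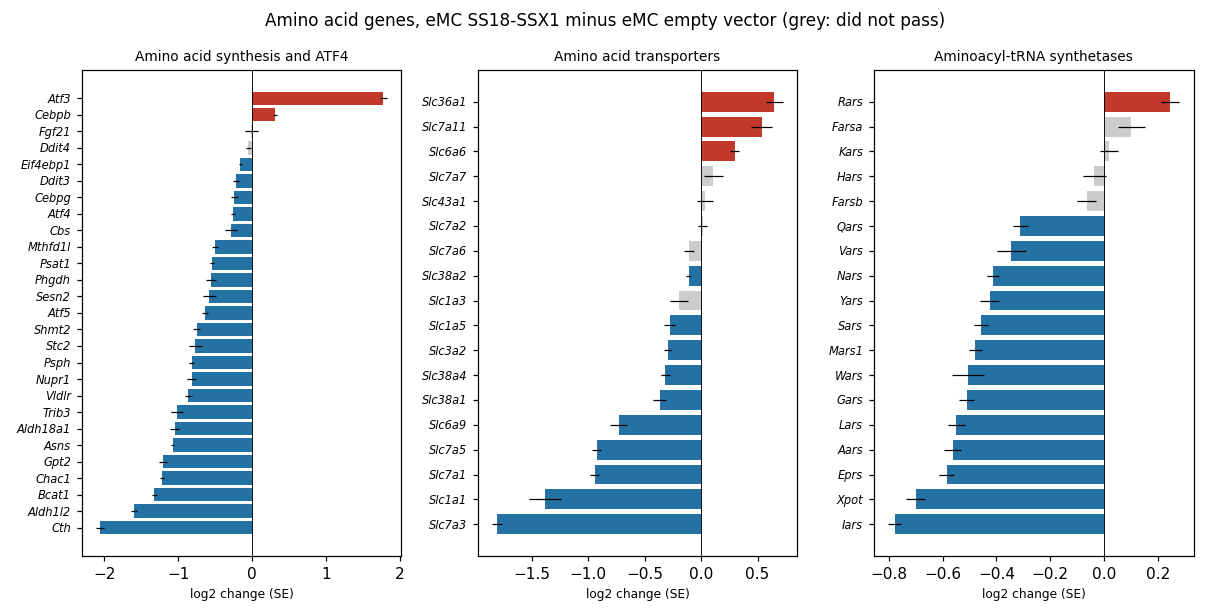
log2 change (bars, with SE) of each measured gene of amino acid synthesis and the ATF4 response, amino acid transport and tRNA charging, eMC SS18-SSX1 minus eMC empty, red for higher, blue for lower and grey where the adjusted p did not pass. Bars point down the scale for 23 of 27, 10 of 18 and 13 of 18 genes that passed, with Atf3 the longest to the other side at 1.78.

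The composite element bound by C/EBP and ATF proteins, written TGATGNAA, was looked for on both strands in the promoters that RefSeq gives for these genes (build GRCm38.p6, from 250 bases before the start to 50 after it). It stood in at least 1 promoter of 445 of 13605 genes on the array with such a sequence (3.27%). Among genes that fell, it stood in 5 of 20 of the synthesis and ATF4 list (25%), in 4 of 9 of the tRNA synthetase list (44.4%) and in 0 of 6 transporters. The lists were written to hold known targets of ATF4, so the shares describe the lists. A match is a run of letters and not evidence of binding, and a window without one says nothing of the factor. The promoters shown are those of Asns, Chac1, Trib3, Nupr1, Gars and Iars, each with a match and each lower in eMC SS18-SSX1. Capitals mark the element or its reverse complement, and each is written 5′ to 3′ on the strand of the gene. Those of Asns (chr6:7693160-7693459, minus strand) and Gars (chr6:55037751-55038050, plus strand) hold it just upstream of the start, with its first base at -23 and -30. It lies past the start in Trib3 (chr2:152344011-152344310, minus strand) and Iars (chr13:49681880-49682179, plus strand), at 14 and 7, and farther upstream in Chac1 (chr2:119350992-119351291, plus strand) and Nupr1 (chr7:126625421-126625720, minus strand), at -193 and -110.
Asns: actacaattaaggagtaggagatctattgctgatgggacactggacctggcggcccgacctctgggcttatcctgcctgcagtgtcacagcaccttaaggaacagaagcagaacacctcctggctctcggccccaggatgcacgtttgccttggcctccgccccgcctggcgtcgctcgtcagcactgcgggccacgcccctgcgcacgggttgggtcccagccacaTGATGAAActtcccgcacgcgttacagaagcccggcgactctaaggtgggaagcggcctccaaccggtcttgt
Gars: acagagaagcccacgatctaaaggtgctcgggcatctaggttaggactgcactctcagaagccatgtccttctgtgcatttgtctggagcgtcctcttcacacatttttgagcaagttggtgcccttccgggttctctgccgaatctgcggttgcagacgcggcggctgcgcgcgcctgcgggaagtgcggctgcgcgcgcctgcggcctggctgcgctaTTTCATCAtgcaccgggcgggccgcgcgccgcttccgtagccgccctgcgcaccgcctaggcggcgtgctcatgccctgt
Trib3: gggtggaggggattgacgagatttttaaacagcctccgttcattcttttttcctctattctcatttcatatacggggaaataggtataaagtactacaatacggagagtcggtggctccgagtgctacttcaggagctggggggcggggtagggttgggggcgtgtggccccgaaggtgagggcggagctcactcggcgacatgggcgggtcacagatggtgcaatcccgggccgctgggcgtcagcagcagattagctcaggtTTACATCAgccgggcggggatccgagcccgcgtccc
Iars: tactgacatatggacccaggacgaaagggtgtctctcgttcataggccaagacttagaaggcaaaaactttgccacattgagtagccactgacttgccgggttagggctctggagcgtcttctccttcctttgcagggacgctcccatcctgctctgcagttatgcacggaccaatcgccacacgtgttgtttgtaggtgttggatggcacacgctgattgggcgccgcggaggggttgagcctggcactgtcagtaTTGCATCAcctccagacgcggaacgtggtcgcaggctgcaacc
Chac1: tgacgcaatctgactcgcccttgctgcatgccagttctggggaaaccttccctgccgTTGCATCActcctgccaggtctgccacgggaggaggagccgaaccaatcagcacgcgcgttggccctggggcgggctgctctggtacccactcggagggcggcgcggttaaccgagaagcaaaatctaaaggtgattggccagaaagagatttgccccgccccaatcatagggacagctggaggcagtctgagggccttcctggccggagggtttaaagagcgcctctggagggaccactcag
Nupr1: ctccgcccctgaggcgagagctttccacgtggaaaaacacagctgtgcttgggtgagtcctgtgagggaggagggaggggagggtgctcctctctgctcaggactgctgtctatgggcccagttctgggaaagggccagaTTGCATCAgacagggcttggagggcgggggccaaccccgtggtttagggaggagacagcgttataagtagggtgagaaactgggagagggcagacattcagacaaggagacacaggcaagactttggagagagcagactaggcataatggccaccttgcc
Asns carried the element as TGATGAAA and Gars its reverse complement, TTTCATCA. Chac1, Nupr1 and Iars carried a form that differs at the open position, TTGCATCA, on the opposite strand. The 4 genes of the first list fell by between 0.82 and 1.22 on the log2 scale, and Gars and Iars by 0.51 and 0.78.

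Lipid genes were higher, and the rise lay in storage and transport more than in sterol synthesis. Of 26 genes of lipid uptake, storage and transport, 21 were higher and none lower, 8 by over 2-fold, with a median log2 change of 0.70. Fitted with all arrays, 7 passed, and Fabp4, Apoc1, Cd36, Cebpa and Pparg were not among them. The lipid droplet protein Cidea had 608, 642, 607 and 612 in eMC SS18-SSX1 against 24.8, 26.8, 22.8 and 25.2 in eMC empty (log2 change 4.63 ± 0.058, adjusted p = 1.59e-18). Apoe, which carries lipid between cells, had 420.5, 409, 439 and 457 against 145, 143, 148 and 161 (log2 change 1.53 ± 0.050). The fatty acid carriers Fabp3 (1.86) and Fabp4 (1.36), the apolipoproteins Apod (2.98) and Apoc1 (1.74), the oxysterol enzyme Ch25h (1.28) and the uptake receptor Cd36 (0.90) were higher too, with only 0.29 and 0.33 at the least changed probe sets of Fabp4 and Cd36. Lpl, the lipase that frees fatty acids at the cell surface, was already high and had 2808, 2863, 2730 and 2756 against 1768, 1692, 1701 and 1790, and the adipokine gene Adipoq had 681, 669.9, 672 and 667 against 248, 230.0, 238 and 239. Neither passed in the fit of all arrays (adjusted p = 0.672 and 0.289). Of the master regulators of fat cells, Cebpa rose by 0.66 and Pparg by 0.31 on the log2 scale, while Lep (-0.13) and Retn (-0.03) did not pass.

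Of 19 genes of fatty acid and triglyceride synthesis, 12 were higher and 3 lower, with a median log2 change of 0.25 that was 0.13 with the mean over probe sets. The desaturase Scd1 had 2458, 2325, 2374 and 2331 in eMC SS18-SSX1 against 1205, 1241, 1223 and 1198 in eMC empty, and fatty acid synthase, Fasn, had 505, 503, 496 and 503 against 321, 328, 286 and 339. Their log2 changes of 0.96 and 0.66 did not pass in the fit of all arrays (adjusted p = 0.0876 and 0.491), in which Thrsp was the only member higher and none was lower. Acacb, which makes the malonyl-CoA that holds back fat burning, had a log2 change of 1.04 that its other probe set gave as -0.09. The enzymes that feed the pathway were lower, with -0.25 for ATP citrate lyase, Acly, and -0.43 for malic enzyme, Me1. Cholesterol genes moved little at their brightest probe sets: of 19 measured, 5 were higher and 1 lower, with a median of 0.08 that is 0.00 after quantile normalization. With the mean over probe sets 9 were higher and none lower (median 0.10), and with arrays centred on their medians 7 and 1 (median 0.11). The largest changes at brightest probe sets were Ebp at 0.48 and the sterol sensor Insig1 at 0.40, and neither passed in the fit of all arrays (adjusted p = 0.13 and 0.298). A dimmer probe set of Sc5d gave 0.66, beside 0.13 at its brightest.

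Genes known from brown fat stood among the largest rises, so a list of them was added after those values had been seen. Of its 20 measured genes, 14 were higher and 1 lower, 10 by over 2-fold, with a median log2 change of 0.97. Ucp1, the uncoupling protein that makes heat in brown fat, had 961, 868, 907 and 959 in eMC SS18-SSX1 against 50.5, 38.04, 41.8 and 50.8 in eMC empty (log2 change 4.36 ± 0.079, adjusted p = 1.15e-16). Cox7a1, a respiratory chain subunit of muscle and brown fat, had 416, 452, 445 and 421 against 23.4, 29.4, 25.2 and 24.4 (log2 change 4.09 ± 0.070, adjusted p = 5.64e-17). Cox8b (3.53), the kinase Pdk4 (2.57), Plin5 (1.45), Cpt1b (1.23), the deiodinase Dio2 (1.01) and the brown fat factor Ebf2 (0.94) were higher, although the other probe sets of Dio2 gave 0.00 and 0.23. In the fit of all arrays 8 of the list were higher and 1 lower, and Pdk4 (adjusted p = 0.0557), Cpt1b, Dio2 and Ebf2 did not pass. The regulators Prdm16 (-0.09) and Lhx8 (0.09) and the elongase Elovl3 (-0.03) did not pass, and Acot11 (-0.30) was lower. The respiratory chain as a whole shifted slightly, with 28 of 30 subunit genes higher, none lower, a median of 0.25 and a highest log2 change of 0.54 for Ndufv1. When all arrays were fitted together, 8 of these passed.

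Matrix genes split by type. The fibrillar collagen list, which holds the collagens of connective tissue and the enzymes that process them, had 8 of 29 genes higher and 15 lower, with a median log2 change of -0.18. Loxl3, an enzyme that crosslinks collagen, had 634, 674, 649.8 and 677 in eMC SS18-SSX1 against 1831, 1833, 1759 and 1887 in eMC empty (log2 change -1.47 ± 0.029, adjusted p = 3.69e-16). The 3 chains of collagen VI, which forms beaded filaments around cells, were all lower, at -0.85 for Col6a1, -0.76 for Col6a2 and -0.57 for Col6a3. Col6a1 had 1411, 1390, 1388 and 1378 against 2635, 2545, 2420 and 2409. With all arrays in 1 fit, Col6a1 (adjusted p = 0.315), Col6a2 and Col6a3 did not pass. Lower by over 2-fold were also Col16a1 (-1.23), Pcolce2 (-1.15) and Loxl4. Col14a1, which binds to fibrils in tendon and skin, went up to 464, 519, 531 and 527 against 160.2, 176, 182 and 181, a log2 change of 1.54 that another of its probe sets gave as 0.17. Col3a1, a main fibril chain, moved by only 0.07. In the fit of all arrays 1 gene of the list was higher and 4 lower.

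Basement membrane genes moved in both directions. Of 24 measured, 11 were higher, 5 of them by over 2-fold, and 5 lower, none by over 2-fold, with a median log2 change of 0.08. The collagen IV chain Col4a1 had 817, 819, 847 and 759 in eMC SS18-SSX1 against 274, 294, 282 and 247 in eMC empty (log2 change 1.57 ± 0.049, adjusted p = 1.13e-13), and its partner chain Col4a2 rose by 1.14 on the log2 scale. Col18a1, the source of endostatin, had 543, 555, 574 and 568 against 142, 142, 146 and 150.3 (log2 change 1.95 ± 0.041, adjusted p = 6.03e-16). The integrin ligands Npnt (1.41) and Egfl6 (1.48) were higher, whereas perlecan, Hspg2 (-0.64), and Col4a5 (-0.60) were lower. The least changed probe set of Npnt gave 0.04. Laminin chains moved less, with 0.68 for Lama2 and 0.33 for Lamc1. Fitted with all arrays, 6 of the list were higher and 1 lower, and Hspg2, Lama2 and Lamc1 did not pass. Vessel cells make much basement membrane, and the endothelial marker sums given above were higher in the same arrays. Their part in these values was not tested.

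Other matrix families held large changes in both directions. Of 25 genes of elastic fibers and small proteoglycans, 9 were higher and 12 lower. Mfap5, a microfibril protein, had 279.6, 277, 275 and 286 in eMC SS18-SSX1 against 63.7, 64.6, 63.8 and 58.7 in eMC empty (log2 change 2.16 ± 0.053, adjusted p = 4e-15), and elastin, Eln, rose by 0.52 on the log2 scale at its brightest probe set and had 0.04 at another. Ltbp3, which stores latent TGF-beta in the matrix, had 362, 348, 344 and 328 against 794, 790.0, 773 and 815, a log2 change of -1.20 that its other probe sets gave as -0.11 and -0.06. The small proteoglycans Omd (-0.71), Prelp (-0.69), Fmod (-0.68) and Bgn (-0.59) were lower, and Aspn (0.55) and Dcn (0.30) were higher. When all arrays were fitted together, 3 of this list were higher and 1 lower, and none of these proteoglycans passed. Of 26 matricellular genes, 9 were higher and 12 lower (1 and 3 in the fit of all arrays). Reelin, Reln, known for guiding neurons, had 243, 234, 232 and 238 against 43.8, 36.6, 26.5 and 45.3 (log2 change 2.67 ± 0.12, adjusted p = 1.25e-11). Fibronectin, Fn1, was among the brightest genes and had 4522, 4462, 4527 and 4632 against 7899, 7805, 7623 and 7620, a log2 change of -0.77 that did not pass in the fit of all arrays (adjusted p = 0.39). The SPARC relative Sparcl1 (-1.27) and Matn4 (-1.19) fell by over 2-fold.

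Proteases that degrade matrix were mostly higher. Of 29 proteases and inhibitors, 18 were higher, 9 by over 2-fold, and 6 lower, with a median log2 change of 0.28. The aggrecan-cleaving Adamts4 had 419.5, 415, 397 and 503 in eMC SS18-SSX1 against 95.5, 94.7, 85.2 and 92.4 in eMC empty (log2 change 2.23 ± 0.067, adjusted p = 5.52e-14), with 0.44 at its other probe set, and its relatives Adamts15 (1.18) and Adamts5 (1.06) also rose. Mmp11, known from stroma around tumors, had 163, 159, 162 and 169.8 against 61.1, 48.7, 59.8 and 66.6. The membrane-bound Mmp16 had 181, 152, 154 and 186 against 459, 473, 462 and 417 and was the 1 member lower by over 2-fold (log2 -1.43). The inhibitors Timp1 (-0.43) and Timp3 (-0.64) were lower, and Timp2 (0.13) was slightly higher, with no pass at 4 other probe sets, though none of the 3 passed in the fit of all arrays, in which 8 of the list were higher and 2 lower. Mmp9 (2.03), Mmp8 (1.48) and Ctsk (1.41) also stand on the granulocyte or osteoclast lists, whose sums were higher in the same arrays, and the part of such cells was not tested. Without a place on those lists, Adamts4, Mmp11, Plat (1.23), Adamts15 and Adamts5 were higher by over 2-fold, with Adamts5 alone of these not passing in the fit of all arrays. Dimmer probe sets of Plat and Adamts5 gave -0.16 and 0.06, which did not pass. Mmp12 (1.27), known from macrophages and on neither of those lists, was over 2-fold higher as well, and the part of macrophages was not tested.

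Bone genes were mostly lower. Of 17 measured, 2 were higher and 11 lower, with a median log2 change of -0.56, and in the fit of all arrays none was higher and 4 lower. Dmp1, a matrix protein of osteocytes, had 22.1, 24.1, 28.2 and 24.1 in eMC SS18-SSX1 against 96.7, 119.6, 91.1 and 106 in eMC empty (log2 change -2.07 ± 0.094, adjusted p = 1.29e-11), with -0.66 at the probe set that changed least. Tnfrsf11b, the decoy that blocks osteoclast formation (-1.40), the pyrophosphate transporter Ank (-1.13), the osteoblast factor Sp7 (-0.79) and Phex (-0.79) were lower, of which Phex did not pass in that fit and had -0.13 at its other probe set. The 2 higher were periostin, Postn, with 2817, 2822, 2883 and 2820 in eMC SS18-SSX1 against 1760, 1752, 1795 and 1728 in eMC empty (log2 change 0.69 ± 0.019, adjusted p = 2.04e-14), and Bglap (0.34), whose groups overlapped. Tendon genes divided, with 5 of 12 higher and 5 lower (3 and 1 in the fit of all arrays). Kera (2.29) and Tnmd (1.54) were over 2-fold higher and the tendon factor Scx had 0.12, which did not pass.

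**Figure D3:**
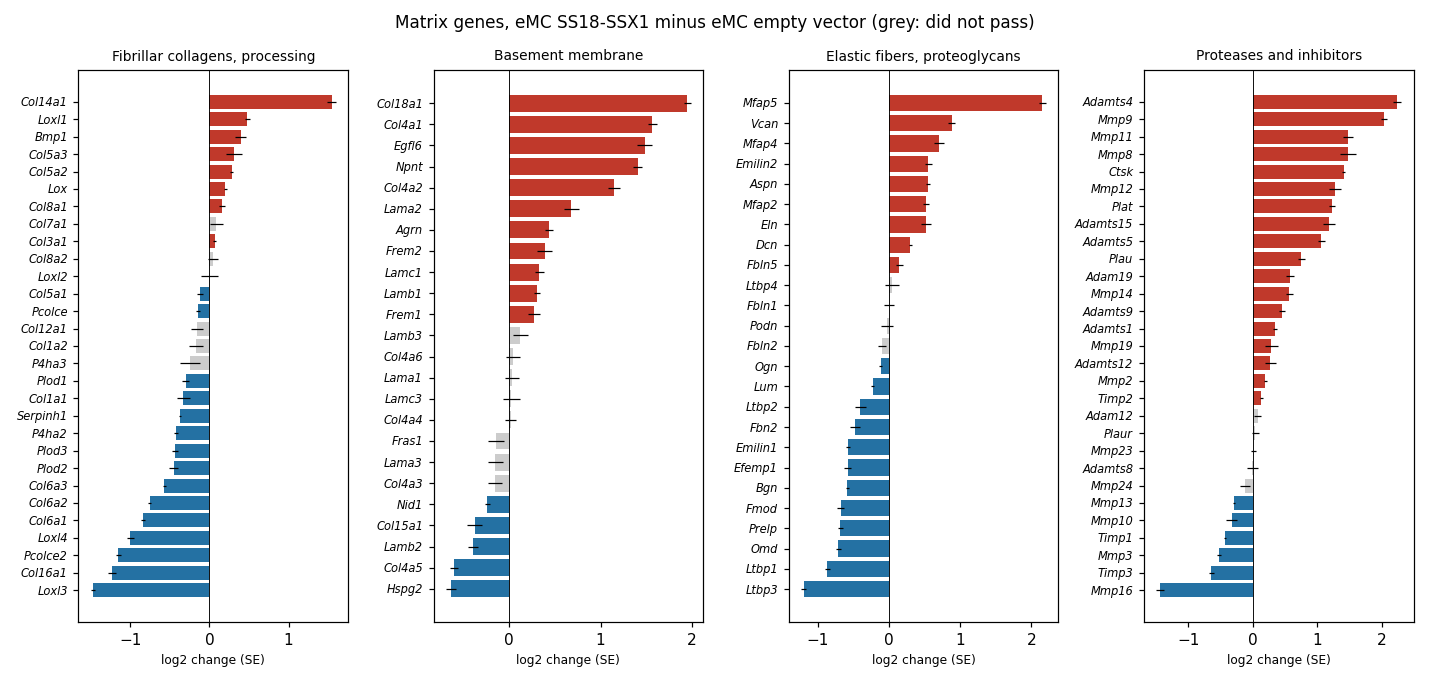
log2 change (bars, with SE) of each measured gene in 4 matrix lists, eMC SS18-SSX1 minus eMC empty, red for higher, blue for lower and grey where the adjusted p did not pass. Collagen genes lean to the left with 15 of 29 lower, and proteases lean to the right with 18 of 29 higher.

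Genes of the neural crest and of Schwann cells, its glial descendants on nerves, had the highest median of the program lists drawn, at a log2 change of 1.42 over brightest probe sets. With the mean over probe sets it was 0.756, beside 0.735 for skeletal muscle and 0.745 for the brown fat list. Of 15 measured, 12 were higher, 9 by over 2-fold, and 1 lower, and in the fit of all arrays 9 were higher and 1 lower. Sox2 changed most, with a mean of 505.5 in eMC SS18-SSX1 against 35.6 in eMC empty (log2 change 3.84 ± 0.078, adjusted p = 4.66e-16). Gap43, a growth-associated protein of axons and immature glia, had 614, 586, 569.8 and 606 in eMC SS18-SSX1 against 44.6, 45.04, 41.6 and 50.1 in eMC empty (log2 change 3.71 ± 0.058, adjusted p = 2.02e-17). The neuregulin receptor Erbb3 had 531, 515, 583 and 528 against 55.2, 57.3, 75.2 and 58.2, and the neurotrophin receptor Ngfr had 513, 493, 478 and 495 against 71.2, 61.5, 55.8 and 71.7. Groups were far apart at these probe sets, with log2 changes of 3.14 and 2.94, but a dimmer probe set of each gave -0.14 and 0.17. The crest factor Foxd3 had 73.4, 80.04, 81.6 and 94.1 against 18.4, 18.5, 26.3 and 21.01, and Sox10, which specifies crest glia, had 157, 144, 156 and 136 against 60.5, 58.8, 53.9 and 66.5, with log2 changes of 1.98 and 1.31. Ednrb (2.38), Tfap2a (1.72) and myelin basic protein, Mbp (1.42), were higher as well. Dimmer probe sets did not pass for Sox10 (0.13 and 0.00), Tfap2a (0.03) and Mbp (0.09). S100b, also known from cartilage, went down to 368, 344, 348 and 307 in eMC SS18-SSX1, against 756, 819, 797 and 853 in eMC empty (log2 change -1.24 ± 0.050, adjusted p = 3.06e-12). Of 27 neuronal genes, 8 were higher and 2 lower, with a median of 0.08, and pan-neuronal genes such as Tubb3 (0.10), Elavl3 (-0.07) and Snap25 (0.09) did not pass.

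Skeletal muscle genes were also higher. Of 34 measured, 23 were higher, 13 by over 2-fold, and none lower, with a median log2 change of 0.71. Tnnc2, a troponin of fast fibers, had 332, 345, 327 and 357 in eMC SS18-SSX1 against 46.1, 42.6, 44.2 and 42.7 in eMC empty (log2 change 2.95 ± 0.055, adjusted p = 1.42e-16). The myosin light chain Myl1 had 851, 869, 831 and 838 against 136, 133, 134 and 130.2 (log2 change 2.67 ± 0.037, adjusted p = 4.31e-18), and the embryonic and perinatal myosins Myh3 (1.71) and Myh8 (2.38) rose too. Regulators of muscle fate moved less. Myog had 639, 679, 711 and 683 against 457, 474, 468 and 426, a log2 change of 0.57 that did not pass in the fit of all arrays (adjusted p = 0.456), nor did Myod1 (0.43) and Myf5 (0.23). Markers of satellite cells and of adult fibers, Pax7 (-0.05), Pax3 (-0.09) and Ckm (-0.21), did not pass. In the fit of all arrays 9 muscle genes were higher and none lower. Limb tissue holds muscle precursors, nerve and fat, so the marker lists of these cells cannot tell a change of cell makeup from a change within cells.

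**Figure D4:**
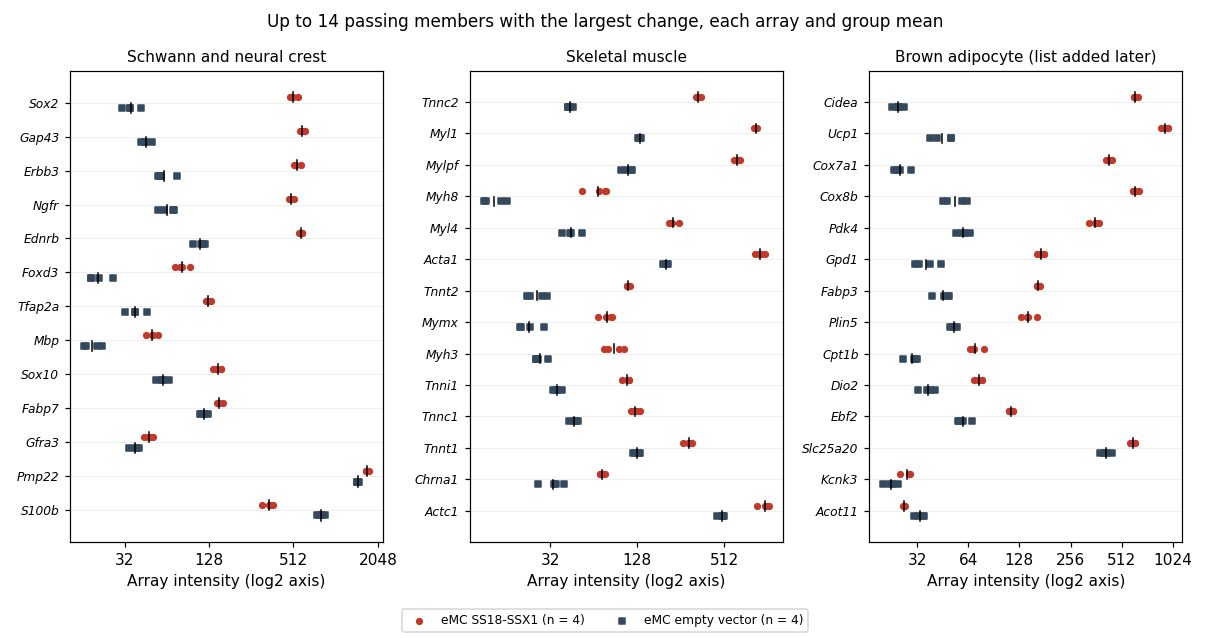
Intensity on each array (points, log2 axis) of up to 14 genes that passed with the largest changes in the neural crest, skeletal muscle and brown adipocyte lists, eMC SS18-SSX1 in red above eMC empty in dark squares, with a bar at each group mean. Groups are separate for the genes drawn at the top of each panel, and S100b and Acot11 lie to the other side.

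Signalling genes changed one by one. Fgf5, a growth factor known for ending hair growth, had 477, 459, 489 and 498 in eMC SS18-SSX1 against 29.2, 33.96, 40.7 and 42.03 in eMC empty (log2 change 3.74 ± 0.090, adjusted p = 3.58e-15), with 1.75 at its other probe set. The FGF receptor Fgfr3, known from cartilage, had 344, 373, 347 and 367 against 1034, 1074, 1081 and 1080 (log2 change -1.58 ± 0.035, adjusted p = 1.16e-15), and Fgfr1 (-0.68) and Fgfr2 (-0.62) were also lower. Readouts of ERK signalling did not share a direction. The phosphatase Dusp4 had 181, 174, 172 and 201.2 against 78.7, 64.3, 53.9 and 62.6, Spry1 rose by 0.46, and Etv5 (-0.82) and Spry2 (-0.31) were lower. Other probe sets of Fgfr2 (-0.08) and Spry2 (-0.06) did not pass. Of 27 genes of the FGF list, 5 were higher and 11 lower. With all arrays in 1 fit, these counts were 2 and 3, and Fgfr1, Fgfr2, Spry1 and Spry2 did not pass.

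Of 28 BMP and TGF-beta genes, 10 were higher and 9 lower (1 and 3 in the fit of all arrays, and 9 and 10 after quantile normalization). The ligand Bmp6 had 47.6, 49.8, 46.5 and 46.8 in eMC SS18-SSX1 against 163, 167, 151 and 169.9 in eMC empty (log2 change -1.77 ± 0.061), and Bmp2 (-0.95), Bmp7 (-0.68) and Gdf5 (-0.63) were lower, whereas Bmp4 (0.29) was higher. The list of Hedgehog and Notch genes had 12 of 25 higher and 6 lower, with a median log2 change of 0.14 (6 and 1 in the fit of all arrays). In the Notch pathway the ligand Jag1 had 70.2, 61.6, 52.9 and 69.2 against 17.1, 17.4, 24.6 and 16.7, with 0.17 at its other probe set, and the targets Hey1 (1.22), Hes1 (0.89) and Nrarp (0.87) and the receptor Notch3 (0.84) were higher. Dimmer probe sets of Nrarp (0.15) and Notch3 (0.10) did not pass. Endothelial markers were higher in the same arrays, and the part of vessel cells in the Notch values was not tested. Of Hedgehog genes, the targets Hhip (-1.12), Ptch1 (-0.36) and Gli1 (-0.35) were lower and the ligand Dhh (0.55) higher. Wnt genes had 8 of 27 higher and 10 lower, with targets Lef1 (-0.67) and Axin2 (-0.35) lower and Nkd2 (1.09) higher, though second probe sets of Axin2 (-0.17) and Nkd2 (0.14) did not pass. Retinoic acid genes had 7 of 18 higher and 5 lower (2 and 2 in the fit of all arrays). Crabp2, which carries retinoic acid to its receptor, had 165, 156, 172 and 172 against 29.6, 41.9, 39.8 and 22.1 (log2 change 2.36 ± 0.14), and the retinoic acid synthesis enzyme Aldh1a2 rose by 0.93. The synthesis enzyme Rdh10 (-0.69) and the receptor Rarg (-0.50) were lower. The insulin and growth hormone list had 7 of 15 higher and 7 lower (3 and 2 in the fit of all arrays). Igfbp3, which binds insulin-like growth factors, had 1244, 1286, 1371 and 1363 against 420.1, 396, 432 and 414, and Igf1 rose by 1.26 while Irs1 (-0.66) and Igf1r (-0.39, with 0.05 at a probe set that did not pass) were lower. Of the genes in this paragraph, Bmp2, Bmp4, Ptch1, Gli1, Axin2, Irs1 and Igf1r did not pass in the fit of all arrays.

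Secreted immune factors were mostly higher. Of 37 cytokines, chemokines and targets of NF-kB, 23 were higher, 7 by over 2-fold, and 4 lower, with a median log2 change of 0.46, and in the fit of all arrays 11 were higher and none lower. Il6 had 509, 537, 513 and 541 in eMC SS18-SSX1 against 49.4, 49.2, 56 and 48.7 in eMC empty (log2 change 3.37 ± 0.055, adjusted p = 3.77e-17). Of the alarmins of barrier and stromal cells, Tslp had 209, 218, 220.1 and 218 in eMC SS18-SSX1 against 42.2, 31.1, 28.5 and 40.7 in eMC empty. The other, Il33, had 129.5, 144, 133 and 150.0 in eMC SS18-SSX1 against 28.5, 30.6, 35.1 and 36.6 in eMC empty, and neither gene overlapped between the groups. Saa3 (1.58), Tnfaip6 (1.35) and Cxcl12 (1.14) were higher by over 2-fold, and Cxcl5 (-0.54) and Cxcl15 (-0.73), which attract neutrophils, were lower, though not in the fit of all arrays. A second probe set of Cxcl12 gave -0.16, which did not pass, and that of Cxcl15 gave -0.24. Complement had 11 of 18 genes higher and 3 lower (3 and 0 in the fit of all arrays), led by the inhibitors Cd55 (1.29, with 0.45 at another probe set), Cd59a (1.27) and Serping1 (1.26). Macrophage and granulocyte marker sums were higher in the same arrays, and their part in these lists was not tested.

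Of 35 angiogenic and guidance ligands and receptors, 20 were higher, 7 by over 2-fold, and 6 lower (11 and 3 in the fit of all arrays). The largest rises were those of Pdgfd (2.07), Angpt2 (2.04, or 0.33 at its least changed probe set), Sema3b (1.95, or 0.64), placental growth factor, Pgf (1.93), and the neurotrophic factor Gdnf (1.87), while Vegfa (0.06) did not pass and Sema3a (-0.77) was lower. Endothelial markers were higher in the same arrays, and the part of vessel cells in these rises was not tested. Of 28 cadherins and integrins, 16 were higher and 7 lower (6 and 3 in the fit of all arrays). The laminin receptor subunit Itga7 (2.48), Pcdh17 (1.99), Itga8 (1.73) and N-cadherin, Cdh2 (1.67), were higher, and the collagen receptor subunits Itga10 (-0.80) and Itga1 (-0.68) were lower. Kitl, the growth factor for mast cells, rose by 0.94, and the mast cell sum was higher in the same arrays. A link between them was not tested.

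Genes of body position leaned down by small amounts. Of 34 HOX genes, 3 were higher and 16 lower, none by over 2-fold, with a median log2 change of -0.19. Hoxc8 had 408, 418, 421 and 399.8 in eMC SS18-SSX1 against 702, 709, 712 and 740.5 in eMC empty, and in the fit of all arrays 1 HOX gene was lower and none higher. Among 65 other developmental transcription factors, 15 were higher and 17 lower (5 and 6 in the fit of all arrays, without Foxc2 and Tbx18, and 16 and 15 with arrays centred on their medians). Irx3, an Iroquois factor of limb patterning, had 307, 296, 294 and 304 against 657, 711, 692 and 663 (log2 change -1.18 ± 0.037, adjusted p = 1.08e-13), and its relatives Irx5 (-1.06), Irx2 (-0.81) and Irx1 (-0.64) were lower with it, as were Foxc1 (-0.81) and Foxc2 (-0.69). The mesenchymal factors Tcf21 (1.08) and Tbx18 (0.73) and the pair Dlx1 (0.88) and Dlx2 (0.87) were higher. Sox17 (2.41, with 0.91 at another probe set) and Sox18 (1.91), at the head of this list, are also endothelial markers.

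Smaller shifts ran through other programs. Of 20 imprinted genes, 4 were higher and 16 lower, with a median log2 change of -0.31, led by Phlda2 (-1.43), Peg3 (-0.74) and Zim1 (-0.74), of which Peg3 did not pass in the fit of all arrays (adjusted p = 0.189), where 2 of the list were lower. Antioxidant genes under NRF2 had 20 of 25 higher and 4 lower, with a median of 0.36 (11 and 0 in the fit of all arrays), led by Gsta4 (1.15) and including the glutathione synthesis genes Gclm (0.66) and Gclc (0.36). Of these 3, Gclc did not pass in that fit. In these arrays the gene for the cystine carrier and those for glutathione synthesis were higher, whereas Cth, which supplies cysteine, and Chac1, which breaks glutathione down, were lower. Endoplasmic reticulum chaperones had 7 of 25 higher and 14 lower, none by over 2-fold, with Herpud1 (-0.89) and Hspa5 (-0.42) lower. The list of replication-dependent histones, which also holds the variants H2az1 (0.09) and H2ax (0.03), had 7 of 9 genes higher, up to 0.69 for H2bc4. In the fit of all arrays 2 of them were higher. Glycolysis and hypoxia genes (8 higher and 6 lower of 26), targets of p53 (9 and 5 of 22) and ribosome biogenesis genes (9 and 6 of 28) had medians between 0.02 and 0.05. After quantile normalization these were -0.08 to -0.02, with 8 and 9, 9 and 8, and 4 and 9 genes higher and lower in the 3 lists, so their balance depends on the scaling. Genes of the germline and cancer-testis class had none of 21 higher and 1 lower, and 10 of them lay below background on each array.

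**Figure D5:**
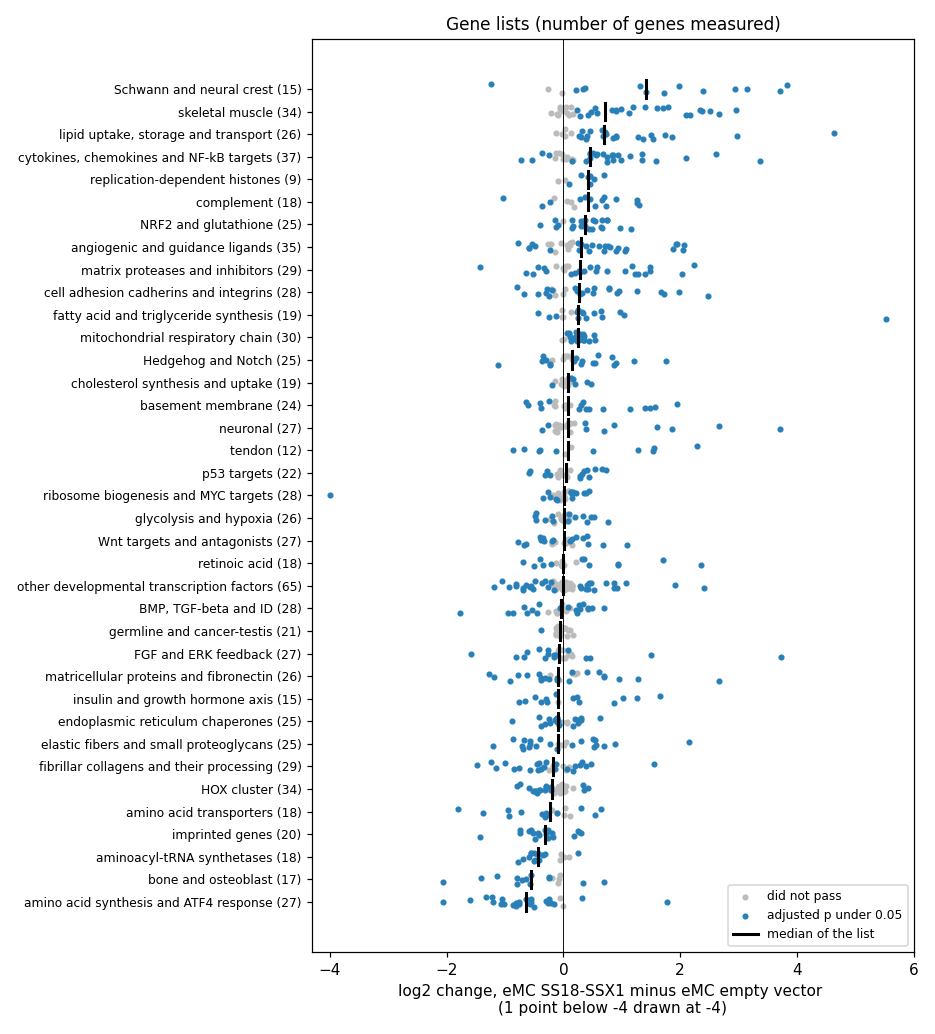
log2 change of every measured member of each program list (points, blue where the adjusted p passed), eMC SS18-SSX1 minus eMC empty, with a black bar at the list's median and the number of genes in brackets. Medians run from -0.64 for amino acid synthesis and the ATF4 response to 1.42 for Schwann and neural crest genes, beside -0.01 over all genes.

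Levels in SS18-SSX1 tumors (12 arrays) were set beside the cultures as a description, since tumors differ from cultures in their cells as well as in time. Reln, at 232 to 243 in eMC SS18-SSX1 arrays, lay at 4755 to 5919 in tumors, and eMC empty arrays lay at 26.5 to 45.3. Ngfr lay at 488 to 1656 and Crabp2 at 290.5 to 682 in tumors, above the eMC empty arrays on each tumor array. By contrast Ucp1 (13.03 to 17.6), Fgf5 (8.32 to 12.7) and Il6 (8.57 to 16.1) were dimmer on each tumor array than on any culture array, and Gap43 (16.9 to 43.4) overlapped the eMC empty arrays at its upper end. Among the amino acid genes, Cth (9.25 to 23.4), Bcat1 (11.3 to 15.9) and Aldh1l2 (20.4 to 39.9) were dimmer on each tumor array than on any culture array of either group. Cdkn2a, lower in eMC SS18-SSX1, lay at 61.8 to 207 in tumors. No test was run on these levels.

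The brightest probe set of Mycn, the neural member of the MYC family, gave the largest change on the arrays. Its intensity was 50.6, 42.3, 40.8 and 39.8 in eMC SS18-SSX1 arrays, against 6401, 6173, 6180 and 6073 in eMC empty arrays (log2 change -7.17 ± 0.058, adjusted p = 7.32e-21). The other probe sets of Mycn did not follow, with log2 changes of -0.08 and 0.43 and intensities of 14.5 to 45.5 on the culture arrays. The bright probe set lay at 4104 to 6450 in SS18-SSX1 tumors, at 1300 to 3117 in tumors that also carried miR-214, at 27.2 to 46.1 in the tissue mix, and at 149 to 153 and 35.4 to 66.0 in the control cultures of the tumor lines SS40 and SS64. Myc itself had a log2 change of -0.09, which did not pass. The eMC empty arrays thus lay within the range of the tumors at this probe set, whereas the eMC SS18-SSX1 arrays overlapped the tissue mix. Among the genes described above, which group lay nearer the tumors differed. At Reln, Ngfr, Crabp2, Cth, Bcat1 and Aldh1l2 it was the eMC SS18-SSX1 arrays. At Ucp1, Fgf5, Il6, Gap43 and Cdkn2a it was the eMC empty arrays. Such levels do not check the labels. What the bright probe set measured was not tested, and it is not read here as the level of Mycn.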

How the data were processed

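For each GeneChip PM mouse array the authors deposited a linear intensity for 45141 probe sets, which they had summarized and scaled beforehand. MAS5 stands in the submitters' processing notes with no version, and the background correction is not given in the sources used here. No further scaling was applied. The log2 of the deposited intensity was tested by limma (version 3.58.1, run in R 4.3.3) through lmFit and a trended eBayes, on 4 eMC SS18-SSX1 and 4 eMC empty arrays, with groups taken from the labels. Benjamini-Hochberg adjustment covered 45037 probe sets, after 104 control probe sets were left out. Where nothing says that replicates came from separate cultures, a p-value reflects only how far these arrays scatter, which may be technical. The number of arrays limits the precision.

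Gene names came from the platform annotation, and 28689 of the symbols were brought up to date by gene ID. A single symbol belonged to 28898 of the probe sets tested, covering 17097 genes, while 551 carried several and 15588 carried none here. A gene took its brightest probe set. Of 104 named genes that were checked, passed and had several, 31 had another that did not pass or ran the other way. A further 17 had one that moved by under 0.5 times as much, and the text gives most of these. A gene was called at an adjusted p under 0.05, with or without a fold change over 2. The background level of 11.7 is the median over all arrays of each array's 20th percentile. Promoters came from RefSeq, and plots were made in Python 3.11.15 (matplotlib 3.10.9). On simulated data of this comparison over 45037 probe sets, 64 of 67 probe sets changed by 1.5-fold were called by the adjusted p, as were 67 of 67 changed by 2.5-fold and 67 of 67 changed by 4-fold, and none of the others passed both criteria.

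The comparison, its gene lists and the genes named were chosen with earlier results of these data known. The genes named are relatives of the fusion's parts, the 20 largest rises and 20 largest falls with no overlap between groups (the lists set aside and the markers of other cells left out, and a mean of the higher group above 23.4), and from each list the called members that changed most, at most 6. Members in brackets outside this rule, the genes Asns, Trib3, Psph, Atf4, Lpl, Sox10, S100b, Postn and Myog, and the brown adipocyte list were chosen after their values were seen. Lists are described by counts and medians with no set test. The alternatives were a floor with a filter on low values, quantile normalization, centring on the median, a pseudocount of 16, the mean over probe sets, 1 fit of all 53 arrays, the replicate number as a block, eBayes without the trend, and leaving out each replicate.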

Additional observations from a re-analysis of the deposited data

Results flagged for a closer look

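In groups of 4 arrays, the value farthest from the rest was set against the group's range (Dixon's test) for the 65 genes whose value on every array was checked, 130 groups in all. It stood out in 7 groups (5.38%), and chance alone gives about 1 in 20. In eMC SS18-SSX1, Cidea had 642 in replicate 2 beside 607 to 612 in the others, and Pou2af1 had 30.7 in replicate 3 beside 25.7 to 25.9. In eMC empty, Slc7a3 had 396 in replicate 4 beside 381 to 383, Mfap5 had 58.7 in replicate 4 beside 63.7 to 64.6, Il6 had 56.0 in replicate 3 beside 48.7 to 49.4, Fgfr3 had 1034 in replicate 1 beside 1074 to 1081, and Jag1 had 24.6 in replicate 3 beside 16.7 to 17.5. Groups did not overlap at these 7 genes, so each value lay on its own group's side by that fact alone. Among 15588 probe sets with no gene name here, 112 were higher in eMC SS18-SSX1 and 64 lower past a 2-fold change with an adjusted p below 0.05, with log2 changes up to 4.27 and down to -1.82. They are left out of each count of genes.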

How the results depend on the processing

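The counts of genes changed by over 2-fold (420 higher, 151 lower) stayed within 1.5 times of these values under each alternative run. They were lowest with a pseudocount of 16, at 300 higher and 116 lower, and all 416 of those genes were also called without it. By the adjusted p alone, 1 fit of all 53 arrays gave 1067 higher and 661 lower genes, against 4467 and 3131, and 101 of 293 named genes no longer passed. That fit shares 1 estimate of the spread with the tumors, and the cause was not tested further. Leaving out 1 array at a time gave 4116 to 4434 higher and 2654 to 3059 lower by the adjusted p, and 414 to 426 higher and 148 to 156 lower with the fold change. Quantile normalization gave 3681 higher and 3583 lower, so the share of higher calls was 50.7%, beside 58.8% as deposited. No named gene turned its direction. Deviations of arrays with the same replicate number correlated weakly, at 0.018 to 0.127, beside -0.094 to 0.033 for arrays with different numbers. These values do not settle whether the numbers pair the arrays. With the replicate number as a block, 4585 genes were higher and 3199 lower, and 420 and 151 by over 2-fold. Intensities near 11.7 compress changes of weakly expressed genes.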
